A study of Mus musculus with 2 samples.

Results

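The genes described here are 8 interferon-stimulated genes, *Isg15*, *Ifit1*, *Ifit3*, *Irf7*, *Bst2*, *Ifitm3*, *Ifi27*, and *Oasl2*, chosen by name from the 32285 genes of the count tables, where all 8 were found. They were followed in droplet-based 3′ scRNA-Seq of whole retina from male C57BL/6J mice aged 7 months, 1 library of WT and 1 library of ND6. The ND6 mice carry a missense change in the complex I gene ND6 of the mitochondrial DNA, at position 13997 G>A, which is homoplasmic and so present in every tissue rather than in a chosen cell type. The mutant line was kept by mating mutant females to WT males, and the WT line by inbreeding. How many retinas or mice went into a library is not given in the sources used here. A gene's level is its number of unique molecular identifiers (UMIs) summed over a group of cells and divided by all UMIs of that group, given as CPM, and a ratio is the log2 of the ND6 level over the WT level. With 1 library per genotype the spread between mice is unknown, so no test was made. The intervals are exact 95% intervals and cover counting error only.

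Interferons are secreted when a cell senses viral nucleic acid or its own DNA or RNA in the wrong place. They bind receptors on the same and on neighbouring cells, JAK kinases pass the signal on, and transcription is switched on from interferon-stimulated response elements, short repeats of GAAA in the promoters of many target genes. In the retina, microglia and other immune cells are known for such programmes, while neurons, Müller glia, and the retinal pigment epithelium (RPE) can also respond, and mitochondrial DNA or RNA in the cytosol is a known trigger in other settings.

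The shared GAAA repeats can be read in the promoters of these genes. RefSeq windows of 300 bases around the gene start, build GRCm38.p6, were given for 7 of the 8 genes, all but *Ifi27*. GAAANNGAAA, or TTTCNNTTTC on the other strand, was present in 5 of these 7 windows, against 3.44% of all 32851 windows in the table and 45.0% of the windows of 40 other interferon-stimulated genes. The 170 bases up to the gene start are shown for the 4 genes with matches there, in gene orientation and with the matches in capitals.
Isg15, chr4:156200819-156200988, minus strand: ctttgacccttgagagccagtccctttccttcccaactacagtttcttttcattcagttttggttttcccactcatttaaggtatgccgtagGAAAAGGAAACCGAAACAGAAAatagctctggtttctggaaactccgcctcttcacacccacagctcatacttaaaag
Ifit1, chr19:34640719-34640888, plus strand: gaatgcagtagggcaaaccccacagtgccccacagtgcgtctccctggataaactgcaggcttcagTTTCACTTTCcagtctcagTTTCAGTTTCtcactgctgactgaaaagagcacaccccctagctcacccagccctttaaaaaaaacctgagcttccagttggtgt
Ifit3, chr19:34583359-34583528, plus strand: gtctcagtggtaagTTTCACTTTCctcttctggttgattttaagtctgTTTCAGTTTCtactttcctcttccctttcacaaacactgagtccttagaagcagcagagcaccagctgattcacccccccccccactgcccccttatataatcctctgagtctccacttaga
Bst2, chr8:71537473-71537642, minus strand: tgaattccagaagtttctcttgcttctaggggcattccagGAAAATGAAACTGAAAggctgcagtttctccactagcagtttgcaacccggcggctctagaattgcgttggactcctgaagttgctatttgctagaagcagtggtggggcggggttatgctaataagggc
*Isg15* held 3 overlapping matches, 66 to 78 bases upstream of its start, and *Bst2* 2 overlapping ones at 124 and 130 bases. *Ifit1* and *Ifit3*, neighbours on chromosome 19, each held 2 matches on the opposite strand, beginning 85 and 104 bases upstream in *Ifit1* and 122 and 156 bases upstream in *Ifit3*. In *Ifitm3* the 2 matches lay just after the start, GAAAAGGAAA and GAAACCGAAA. *Irf7* and *Oasl2* had no match in their windows. These are matches of letters only, and no binding was measured. In the annotation (GENCODE vM21, GRCm38) all 8 are protein-coding genes, at chr4:156199424-156200818 (*Isg15*), chr19:34640871-34650009 (*Ifit1*), chr19:34583531-34588731 (*Ifit3*), chr7:141262706-141266481 (*Irf7*), chr8:71534255-71537456 (*Bst2*), chr7:141009586-141010770 (*Ifitm3*), chr12:103434211-103440239 (*Ifi27*), and chr5:114896936-114912234 (*Oasl2*).

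After filtering, the WT library held 12529 cells with 54524401 UMIs and the ND6 library 18395 cells with 62949610 UMIs, at medians of 1878 and 1416 UMIs per cell. The limit of 20% on UMIs from mitochondrial genes removed 45.9% of WT and 17.3% of ND6 barcodes that had passed the other limits. Clusters were called rod-like, cone-like, bipolar-like, amacrine-like, Müller-like, RPE-like, or microglia- or macrophage-like from marker genes, and 17.3% of WT and 17.7% of ND6 cells stayed unnamed. Unnamed cluster 10 (154 WT and 386 ND6 cells) was led by cone genes, among them *Opn1sw* and *Arr3*. Unnamed cluster 6 (1103 and 1542 cells) had the Müller markers *Glul* and *Rlbp1* among its leading genes. The cone-like and Müller-like classes may thus not hold all such cells. Microglia- or macrophage-like cells were 258 of the WT cells (2.06%, 1.82% to 2.32%) and 157 of the ND6 cells (0.853%, 0.726% to 0.997%). RPE-like cells were 324 (2.59%, 2.32% to 2.88%) and 965 (5.25%, 4.93% to 5.58%), and Müller-like cells 36 and 91, with median depths of 10130 and 1679 UMIs. No cluster was named endothelial, and the endothelial marker *Flt1* was among the leading genes of the Müller-like cluster. Over all cells the endothelial markers summed to 28.2 CPM in WT and 38.9 CPM in ND6. Their part in the Müller-like values was not tested. The libraries shared 59 cell barcodes, 0.471% of WT and 0.321% of ND6 cells. The point mutation cannot be checked from gene counts.

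All 8 genes were rare. Over all cells their summed level was 51.7 CPM in WT (2820 UMIs) and 39.5 CPM in ND6 (2488 UMIs). The classes that held their UMIs differed from gene to gene and, for several genes, between the libraries. The plot of the classes that held each gene's UMIs shows 3 patterns: RPE-like cells led for *Ifi27*, microglia- or macrophage-like and RPE-like cells together for *Bst2* and in WT for *Ifitm3*, and rods for *Irf7*. The *Irf7* pattern was near the rod share of all UMIs. Rod-like cells held 32272150 of the 54524401 WT UMIs and 31962007 of the 62949610 ND6 UMIs.

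**Figure D1:**
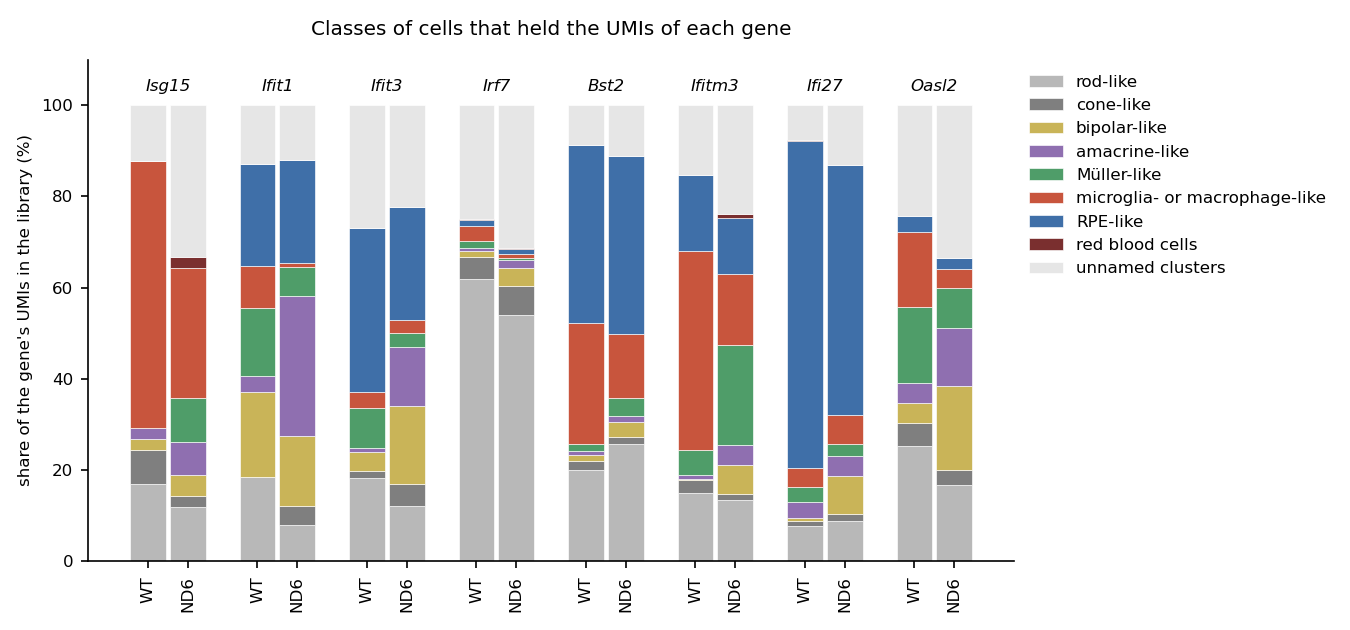
Share of each gene's UMIs (y axis, percent) that came from each class of cells, for WT (left bar) and ND6 (right bar). RPE-like cells held 71.6% of WT and 54.7% of ND6 *Ifi27* UMIs, and rod-like cells 61.9% and 54.0% of *Irf7* UMIs. Of the UMIs of all genes, rod-like cells held 32272150 of 54524401 in WT and 31962007 of 62949610 in ND6.

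*Irf7*, the transcription factor that amplifies type I interferon production, was the gene with the flattest distribution. Its level was 14.5 CPM in WT rod-like cells (468 UMIs, 13.2 to 15.9) and 14.8 CPM in ND6 rod-like cells (474 UMIs, 13.5 to 16.2). Bipolar-like cells had 5.92 and 8.61 CPM, and RPE-like cells 6.13 and 5.81 CPM in WT and ND6. Its highest level among the 7 named retinal classes was in microglia- or macrophage-like cells, 28.7 CPM in WT (24 UMIs, 18.4 to 42.7) and 20.9 CPM in ND6 (7 UMIs, 8.39 to 43.0). From the lowest to the highest of these classes *Irf7* spanned 4.85-fold in WT and 3.59-fold in ND6, where *Ifi27* spanned 164-fold and 114-fold. The last 45 bases of *Irf7*, on the minus strand, overlap the end of *Phrf1* on the plus strand (chr7:141262706-141262750). *Phrf1* was present at 42.7 CPM in WT and 46.8 CPM in ND6 rod-like cells, and its part in the *Irf7* counts was not tested.

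*Isg15*, a ubiquitin-like protein that is attached to other proteins during an interferon response, had its highest level in immune cells, which held 24 of its 41 UMIs in WT and 12 of 42 in ND6, where the unnamed clusters held 14. Microglia- or macrophage-like cells had 28.7 CPM in WT (24 UMIs, 18.4 to 42.7) and 35.8 CPM in ND6 (12 UMIs, 18.5 to 62.5). Rod-like cells had 0.217 CPM in WT (7 UMIs) and 0.156 CPM in ND6 (5 UMIs). No *Isg15* UMI was found in RPE-like cells of either library, which allows levels of up to 1.67 CPM in WT and 1.74 CPM in ND6, taking 3 counts as the limit. *Isg15* was the one gene of the 8 with no UMI in RPE-like cells. A single WT microglia- or macrophage-like cell with 8797 UMIs held 10 of the 24 *Isg15* UMIs, and without it the level there was 16.9 CPM. In ND6 the interval of the ratio between microglia- or macrophage-like and Müller-like cells, the next class (11.5 CPM from 4 UMIs), was -0.09 to 3.72 on the log2 scale and so included 0.

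*Ifit1*, which binds foreign RNA and blocks its translation, and its family member *Ifit3* were led by non-immune classes in these libraries. *Ifit3* was highest in RPE-like cells, with 27.3 CPM in WT (49 UMIs, 20.2 to 36.1) and 29.6 CPM in ND6 (51 UMIs, 22.1 to 38.9). Müller-like cells followed in WT with 16.1 CPM (12 UMIs), and in ND6 microglia- or macrophage-like cells with 17.9 CPM and Müller-like cells with 17.3 CPM (6 UMIs each). The first 2 classes of each library were not separated by their intervals. Rod-like cells had 0.775 and 0.782 CPM, from 25 UMIs in each library. *Ifit3* in bipolar-like cells was 3.55 CPM in WT (6 UMIs, 1.30 to 7.73) and 8.87 CPM in ND6 (35 UMIs, 6.18 to 12.3), a log2 ratio of 1.32 (0.06 to 2.86) and of 1.82 (0.32 to 3.77) without the richest cell of each library. The bipolar-like class joined clusters that the libraries filled differently, and their part in this ratio was not tested. *Ifit1* was led by Müller-like cells, with 10.7 CPM in WT (8 UMIs, 4.63 to 21.1) and 23.1 CPM in ND6 (8 UMIs, 9.96 to 45.5). RPE-like cells had 6.68 CPM in WT (12 UMIs, 3.45 to 11.7) and 16.3 CPM in ND6 (28 UMIs, 10.8 to 23.5). These intervals overlapped those of Müller-like cells in both libraries. *Ifit1* was 20.4 CPM in ND6 amacrine-like cells (38 UMIs) against 2.69 CPM in the WT ones (2 UMIs). Of the 38 UMIs, 34 came from 1 cell described below, without which the ND6 amacrine-like level was 2.16 CPM, and without its own richest cell the ND6 Müller-like level was 11.8 CPM. In microglia- or macrophage-like cells *Ifit1* had 5 UMIs in WT and 1 in ND6. *Ifit3b*, a close copy of *Ifit3* beside it on chromosome 19, had 93 WT and 90 ND6 UMIs, and how reads common to both were assigned is not given in the sources used here, so both levels are uncertain.

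*Oasl2*, a relative of the 2′-5′ oligoadenylate synthetases that sense double-stranded RNA, was highest in Müller-like cells. They had 25.5 CPM in WT (19 UMIs, 15.3 to 39.8) and 31.7 CPM in ND6 (11 UMIs, 15.8 to 56.8). Microglia- or macrophage-like cells had 22.7 CPM in WT (19 UMIs) and 14.9 CPM in ND6 (5 UMIs), and the intervals of the ratio to Müller-like cells included 0 in both libraries. RPE-like cells had 2.23 and 1.74 CPM and rod-like cells 0.899 and 0.657 CPM. A UMI of *Oasl2* was seen in 13 of 36 WT (36.1%) and 7 of 91 ND6 (7.69%) Müller-like cells, at the depths above, against 0.304% and 0.156% of rod-like cells. After thinning each cell to 400 UMIs the Müller-like shares were 1.66% and 0.620%, and those of the rods 0.0581% and 0.0291%.

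*Bst2* encodes tetherin, a membrane protein that holds budding viruses at the cell surface. It was highest in microglia- or macrophage-like cells, 179 CPM in WT (150 UMIs, 152 to 210) and 155 CPM in ND6 (52 UMIs, 116 to 203). RPE-like cells came second, with 123 CPM (221 UMIs, 107 to 140) and 83.6 CPM (144 UMIs, 70.5 to 98.5), below the immune class by intervals without 0 in both libraries. Rod-like cells had 3.53 CPM in WT and 2.97 CPM in ND6. A UMI of *Bst2* was seen in 28.7% of WT (23.2% to 34.6%) and 19.1% of ND6 (13.3% to 26.1%) microglia- or macrophage-like cells, against 1.22% and 0.763% of rod-like cells, at median depths of 1701.5 and 1210 UMIs against 1722 and 1333. Thinned to 400 UMIs per cell the immune shares were 8.56% and 6.61%, and those of the rods 0.167% and 0.130%.

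*Ifitm3*, which blocks the entry of viruses through endosomes, was highest in WT microglia- or macrophage-like cells at 229 CPM (192 UMIs, 198 to 264). In the same class of the ND6 library it was 116 CPM (39 UMIs, 82.7 to 159). Müller-like cells had 32.2 CPM in WT (24 UMIs, 20.6 to 47.9) and 159 CPM in ND6 (55 UMIs, 119 to 206). Of those 55 UMIs, 42 came from 1 ND6 cell of 8743 UMIs, and the level without it was 38.5 CPM. WT without its own richest cell was at 24.5 CPM, which gives a log2 ratio of 0.65 (-0.50 to 1.76). RPE-like cells had 40.6 CPM in WT (73 UMIs, 31.9 to 51.1) and 18.0 CPM in ND6 (31 UMIs, 12.2 to 25.6). Barcodes with 10 to 100 UMIs, too few to be taken as cells, had *Ifitm3* at 102 CPM in WT (23 UMIs, 64.5 to 153) and 18.0 CPM in ND6 (7 UMIs, 7.23 to 37.0), and rod-like cells had 2.05 and 1.06 CPM. *Ifitm2*, a close relative on the same chromosome, had 385 WT and 305 ND6 UMIs.

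*Ifi27*, a small membrane protein induced strongly by type I interferon, was highest in RPE-like cells among the 7 named retinal classes. Its level there was 284 CPM in WT (510 UMIs, 260 to 310) and 157 CPM in ND6 (270 UMIs, 139 to 177). A UMI was seen in 134 of 324 WT cells (41.4%) and 185 of 965 ND6 cells (19.2%), at median depths of 2556 and 1116 UMIs, against 0.631% and 0.336% of rod-like cells, at 1722 and 1333. Thinned to 400 UMIs the RPE-like shares were 9.68% and 6.86%, and those of the rods 0.130% and 0.0898%. Microglia- or macrophage-like cells had 35.8 CPM in WT (30 UMIs, 24.2 to 51.2) and 95.4 CPM in ND6 (32 UMIs, 65.3 to 135). Cluster 14 of that class, described below, had 51.7 CPM in WT (20 UMIs) and 160 CPM in ND6 (21 UMIs, 99.1 to 245). In ND6 the *Ifi27* level thus did not set RPE-like cells apart from that cluster. Rod-like cells were the lowest of the named retinal classes in both libraries, at 1.74 and 1.38 CPM. Bipolar-like cells had 2.96 CPM in WT (5 UMIs) and 10.4 CPM in ND6 (41 UMIs, 7.45 to 14.1).

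**Figure D2:**
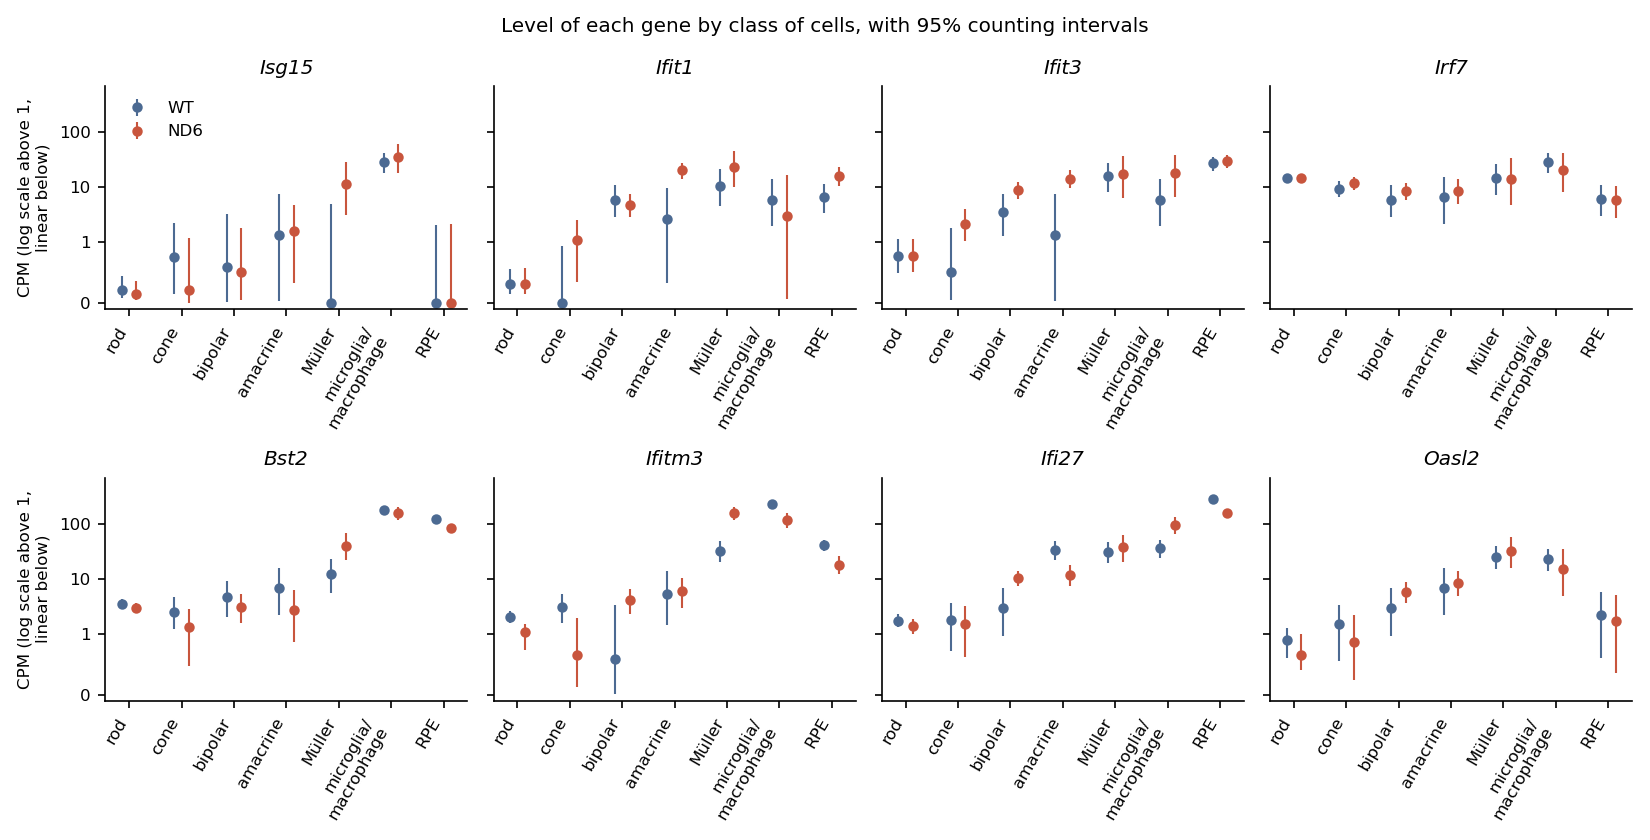
Level of each gene (y axis, CPM, log scale above 1 and linear below) in 7 classes of cells, WT in blue and ND6 in red, with exact 95% Poisson intervals as bars. *Irf7* stays between 5.81 and 28.7 CPM in all classes, while *Ifi27* runs from 1.38 CPM in ND6 rod-like cells to 284 CPM in WT RPE-like cells.

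Between the libraries, the levels of the 8 genes over all cells differed in both directions. *Ifit1* was at 0.990 CPM in WT and 1.97 CPM in ND6, a log2 ratio of 0.99 (0.52 to 1.48), and *Ifit3* at 2.51 and 3.27 CPM, 0.38 (0.06 to 0.70). *Bst2* was at 10.4 and 5.86 CPM, a ratio of -0.82 (-1.02 to -0.63). *Ifitm3* was at 8.05 and 3.99 CPM, -1.01 (-1.24 to -0.79), and *Ifi27* at 13.1 and 7.85 CPM, -0.73 (-0.90 to -0.57). Both *Ifit* genes were thus higher in the ND6 library and the 3 genes of membrane proteins lower, but with equal weight for every cell *Ifi27* turned to 0.17. With each class weighted by its share of cells in both libraries pooled, *Bst2* was at -0.40 and *Ifitm3* at -0.72. *Irf7* was at 13.9 CPM in both, 0.01 (-0.14 to 0.15), *Isg15* at 0.752 and 0.667 CPM, -0.17 (-0.83 to 0.48), and *Oasl2* at 2.11 and 1.99 CPM, -0.09 (-0.46 to 0.29).

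The interval of the ratio lay apart from 0 for 5 of the 8 genes, where 65.8% of the 15888 genes with at least 20 UMIs had such an interval, so this count is near the background. Past 2-fold, 1 of 8 was lower in ND6, *Ifitm3*, against 2.81% of all genes, and 0 of 8 were higher, against 8.6%. *Ifit1* stood just inside the 2-fold limit. The median log2 ratio of the 8 genes was -0.13, beside 0.07 over all genes, and with equal weight for every cell it was 0.14, beside 0.21. Of all genes past 2-fold, 75.4% were higher in ND6, and 88.3% were when every cell was given the same weight. Fewer cells of a type and less RNA per cell cannot be told apart in a level over all cells.

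**Figure D3:**
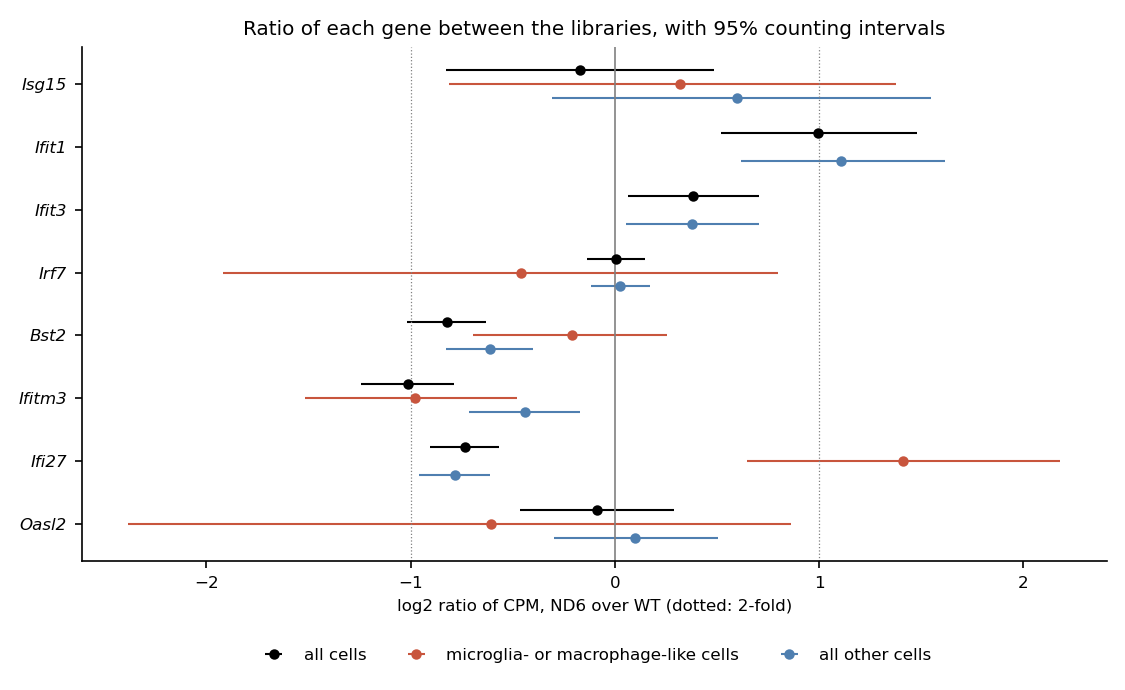
Log2 ratio of CPM, ND6 over WT (x axis), of each gene over all cells, in microglia- or macrophage-like cells, and in all other cells, with exact 95% intervals; ratios resting on fewer than 20 UMIs are left out. *Ifi27* lies at 1.41 in microglia- or macrophage-like cells and at -0.78 in all other cells.

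The immune class differed in size between the libraries. All 14 microglia and macrophage markers were lower over all ND6 cells, their summed level was 360 CPM in WT and 180 CPM in ND6, and none was at 0 in either library. T or NK cell markers were lower with them, 5 of 6, at a summed 1.56 CPM in WT and 0.381 CPM in ND6, *Ccl5* was among the leading genes of cluster 11 of the class, and all 4 *Ifng* UMIs of the WT library lay in the class; their part in its values was not tested. Within microglia- or macrophage-like cells the median ratio of the 6 members with at least 20 UMIs was -0.29, beside 0.05 over all 7001 genes there. *Ifitm3* was lower by a log2 ratio of -0.98 (-1.52 to -0.48), and *Ifi27* higher by 1.41 (0.65 to 2.18). *Bst2* had a ratio of -0.21 (-0.69 to 0.26), *Isg15* of 0.32 (-0.81 to 1.38), *Irf7* of -0.46 (-1.92 to 0.80), and *Oasl2* of -0.61 (-2.38 to 0.86). *Ifi27* was the 1 of 6 past 2-fold higher, against 4.91% of genes, and 0 of 6 were past 2-fold lower, against 6.54%.

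The class was made of 2 clusters, which gave different values for *Ifitm3* and *Bst2*. The differences between the clusters were not tested. In the larger cluster, cluster 11 with 210 WT and 131 ND6 cells, *Ifitm3* was 315 CPM in WT (142 UMIs) and 78.4 CPM in ND6 (16 UMIs), a ratio of -2.01 (-2.85 to -1.26). In cluster 14, led by the chemokine genes *Ccl3* and *Ccl4* and with 48 WT and 26 ND6 cells, it was 129 CPM (50 UMIs) and 175 CPM (23 UMIs), a ratio of 0.44 (-0.34 to 1.18). *Bst2* was 162 and 93.1 CPM in WT and ND6 in cluster 11, a ratio of -0.80 (-1.61 to -0.06). Without the richest cell of each library that ratio was -0.75 (-1.62 to 0.04). In cluster 14 *Bst2* was 199 and 251 CPM, a ratio of 0.34 (-0.30 to 0.94). The ratio of *Ifi27* was 1.28 (-0.10 to 2.67) in cluster 11 and 1.63 (0.67 to 2.59) in cluster 14. *Isg15* was concentrated in cluster 14, at 56.9 CPM in WT (22 UMIs) and 61.0 CPM in ND6 (8 UMIs), against 4.44 and 19.6 CPM in cluster 11.

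Outside the immune class, the median ratio of the 8 genes was 0.06, beside 0.09 over 15580 genes. *Ifit1* was higher in ND6 by 1.11 (0.62 to 1.61), the 1 of 8 past 2-fold higher against 9.5% of genes, and 0 of 8 were past 2-fold lower, against 1.15%. Without the richest cell of each library the *Ifit1* ratio was 0.73 (0.20 to 1.28), within 2-fold. *Bst2* had a ratio of -0.61 (-0.83 to -0.40), *Ifitm3* of -0.44 (-0.71 to -0.17), and *Ifi27* of -0.78 (-0.96 to -0.61). With every cell given the same weight, those of *Bst2* and *Ifi27* turned to 0.17 and 0.15. In rod-like cells alone, *Ifitm3* was lower by -0.94 (-1.58 to -0.33) and the intervals of the other 7 genes included 0.

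RPE-like cells held the largest share of *Ifi27* and *Bst2* UMIs in both libraries. In that class the ratios were -0.86 (-1.07 to -0.64) for *Ifi27*, -0.56 (-0.87 to -0.25) for *Bst2*, and -1.17 (-1.83 to -0.55) for *Ifitm3*, and 1.28 (0.26 to 2.39) for *Ifit1*. *Ifitm3* was the 1 of 6 genes past 2-fold lower there, against 2.31% of genes, and *Ifit1* the 1 of 6 past 2-fold higher, against 2.85%. Without the richest cell of each library *Ifit1* was at 0.98 (-0.27 to 2.33), within 2-fold and with an interval that included 0. The class joined 2 clusters that the libraries filled differently: cluster 7 held 224 WT and 960 ND6 cells, and cluster 8 held 100 WT and 5 ND6 cells. Cluster 8 was the deeper, with a median of 8237.5 UMIs in WT against 1683.5 in WT cells of cluster 7, and its WT levels of *Ifi27* and *Bst2* were higher. In WT cells *Ifi27* was 418 CPM in cluster 8 (400 UMIs) and 131 CPM in cluster 7 (110 UMIs), and *Bst2* was 188 and 48.9 CPM.

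In cluster 8 *Ifi27* was 418 CPM in WT and 76.2 CPM in ND6 (3 UMIs in 5 cells), -2.45 (-4.74 to -0.90). Within cluster 7 the ratios of *Ifi27*, *Bst2*, and *Ifitm3* were above 0, with an interval without 0 for *Bst2*. *Ifi27* was 131 CPM in WT and 159 CPM in ND6 (267 UMIs), 0.27 (-0.05 to 0.61), *Bst2* 48.9 and 80.8 CPM, 0.72 (0.21 to 1.27), and *Ifitm3* 15.5 and 17.2 CPM, 0.15 (-0.84 to 1.22). *Ifit3* there was 8.35 CPM in WT (7 UMIs) and 27.9 CPM in ND6 (47 UMIs), 1.74 (0.59 to 3.13). *Ifit1* had 1 UMI in WT and 27 in ND6 in that cluster, 11 of them in 1 cell. The median share of UMIs from mitochondrial genes in cluster 7 was 11.2% in WT and 4.12% in ND6. The tissue taken and the genotype cannot be told apart in the share of cells from cluster 8 with 1 library each.

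**Figure D4:**
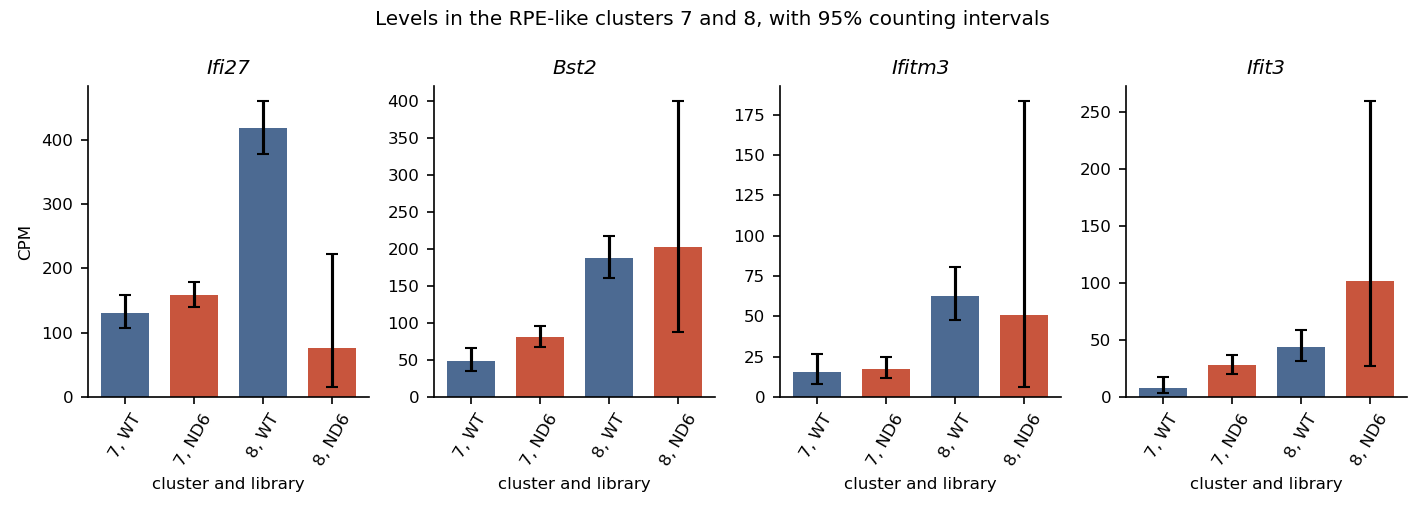
Levels (y axis, CPM) of 4 genes in the RPE-like clusters 7 and 8 of the WT (blue) and ND6 (red) library, with exact 95% Poisson intervals. In cluster 7 *Bst2* is 48.9 CPM in WT and 80.8 CPM in ND6, while WT cluster 8 stands at 188 CPM; ND6 cluster 8 rests on 5 cells.

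Some values rested on single cells. The ND6 cell with the most *Ifit1* UMIs lay in the amacrine-like cluster and had 12159 UMIs. It held 34 of the 124 *Ifit1* UMIs of its library, 17 of 206 *Ifit3* UMIs, and 8 of 125 *Oasl2* UMIs. It also held 18 of 41 UMIs of *Rsad2*, which encodes the antiviral protein viperin, 6 of *Parp14*, 5 each of *Cmpk2* and *Usp18*, and 2 of *Cxcl10*. These genes were named after their values were seen. The cell was amacrine-like by its cluster only, and its own markers were mixed. It held 64 UMIs of amacrine markers and 111 of Müller markers. There were also 30 UMIs of rod, 29 of bipolar, and 12 of endothelial markers. It had no UMI of the 14 microglia and macrophage markers. Doublets were not removed, and their part in this cell was not tested. Without this cell and the richest WT cell, the *Ifit1* ratio over all cells was 0.61 (0.10 to 1.14) and that of *Ifit3* 0.31 (-0.02 to 0.64). Among amacrine-like cells, 4 *Ifit1* UMIs were left in ND6 and 0 in WT.

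The ND6 Müller-like cell of 8743 UMIs held 42 of the 251 *Ifitm3* UMIs of its library, 11 of *Bst2*, 4 each of *Ifit1* and *Oasl2*, 3 of *Ifi27*, 2 of *Isg15*, and 1 of *Ifit3*, 7 of the 8 genes. The part of endothelial RNA in this cell was not tested. An RPE-like ND6 cell of 7912 UMIs held 11 *Ifit1*, 9 *Ifit3*, and 8 *Ifi27* UMIs. In WT, the microglia- or macrophage-like cell of 8797 UMIs named above had 10 *Isg15*, 6 *Irf7*, 6 *Ifitm3*, and 3 *Ifit1* UMIs and 7 of the 8 genes. In amacrine-like cells, *Ifi27* was 33.6 CPM in WT (25 UMIs) and 11.8 CPM in ND6 (22 UMIs), and 15 of the WT UMIs came from 1 cell of 66060 UMIs.

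**Figure D5:**
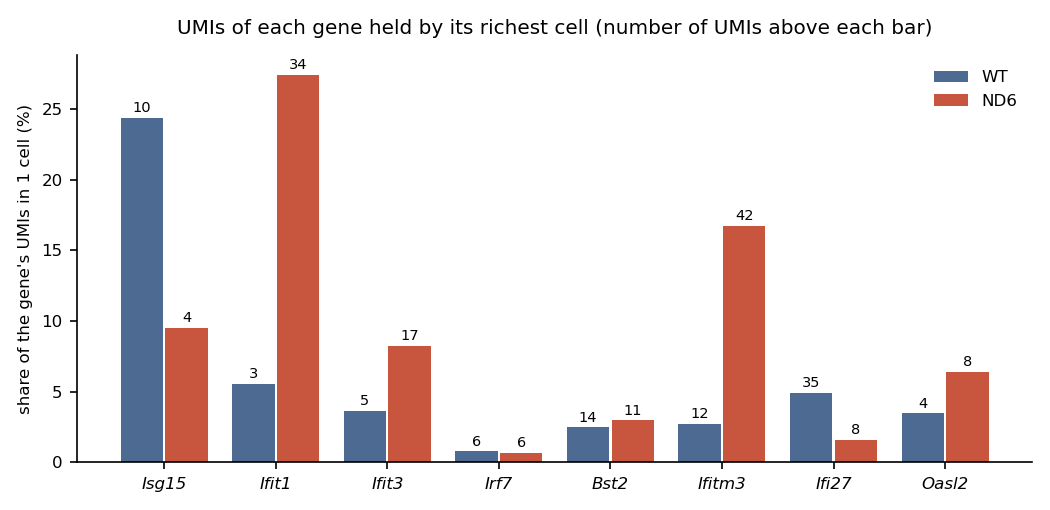
Share of each gene's UMIs (y axis, percent) held by the single richest cell of the WT (blue) and ND6 (red) library, with the number of UMIs above each bar. One cell held 27.4% of ND6 *Ifit1* UMIs and 16.7% of ND6 *Ifitm3* UMIs, and in WT 24.4% of *Isg15* UMIs.

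Cells with several of the genes at once were uncommon. At least 3 of the 8 genes were seen in 89 WT cells (0.710%, 0.571% to 0.873%) and 53 ND6 cells (0.288%, 0.216% to 0.377%). Their median depth was 9112 UMIs in WT and 6569 in ND6, beside 1878 and 1416 over all cells. By class these were 13.3% of WT and 1.66% of ND6 RPE-like cells, 19.4% and 5.49% of Müller-like cells, and 8.53% and 8.92% of microglia- or macrophage-like cells, where the intervals overlapped. Rod-like cells had 3 such cells of 8881 in WT and 2 of 12193 in ND6. RPE-like and Müller-like cells were also, of the named retinal classes, those whose median depth differed most between the libraries, and the part of depth in these shares was not tested.

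The rest of the pathway was read from lists of 136 genes, and counts past 2-fold over all cells stand beside 8.6% of all genes higher and 2.81% lower. The interferons themselves were nearly absent, with 14 UMIs in WT and 1 in ND6 over 15 genes, *Ifnb1* at 6 and 0. Of their receptors, *Ifngr1* was at 39.2 and 38.5 CPM, *Ifnar1* at 22.2 and 21.8 CPM, and *Ifnar2*, the other chain of the type I receptor, at 3.26 and 2.35 CPM, -0.47 (-0.80 to -0.15), and 0 of 5 receptor genes passed 2-fold. Among 14 sensors and adaptors 1 was past 2-fold higher, *Ddx58* (RIG-I, a sensor of viral RNA), at 1.61 and 3.27 CPM, 1.02 (0.65 to 1.40), and 3 were past 2-fold lower, *Cgas*, *Tlr7*, and *Ifi204*, named after their values were seen. The immune class held 32 of 35, 39 of 41, and 50 of 53 of their WT UMIs. Within that class their ratios were -1.10 (-2.64 to 0.18), -0.51 (-1.62 to 0.49), and -0.24 (-1.12 to 0.58), with intervals that included 0. The kinase *Tbk1* was at 29.2 and 25.4 CPM, and the adaptor *Mavs* at 10.2 and 10.3 CPM. Of 10 signalling genes, *Irf8* and *Irf5* were past 2-fold lower, at -1.24 (-1.54 to -0.94) and -1.44 (-1.99 to -0.91), whereas *Jak1* was at 108 and 120 CPM. Within microglia- or macrophage-like cells *Irf8*, a factor that microglia require, was at 298 CPM in both libraries. *Irf5* had a ratio of -0.46 (-1.15 to 0.19) there.

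Among the inhibitors, *Socs3*, which blocks JAK kinases, was lower at -1.07 (-1.28 to -0.87), and at -1.09 (-1.34 to -0.85) outside the immune class but 0.46 (0.09 to 0.83) within it, and *Adar*, which edits double-stranded RNA, was higher at 0.57 (0.46 to 0.68). *Ptpn6*, a phosphatase of blood cells, was lower at -1.02 (-1.51 to -0.54) over all cells and was at 0.03 (-0.57 to 0.61) within the immune class. Of 38 other interferon-stimulated genes with at least 20 UMIs, 1 was past 2-fold higher and 9 past 2-fold lower, beside the same 8.6% and 2.81%. The one past 2-fold higher was *Rsad2*, at 0.183 and 0.651 CPM from 10 and 41 UMIs. Of the 41, 18 lay in the cell with mixed markers above. *Ifi27l2a*, a relative of *Ifi27*, was lower at -1.69 (-2.05 to -1.34), and within microglia- or macrophage-like cells at -0.88 (-1.37 to -0.42). In WT and ND6 it was 360 and 113 CPM in cluster 11 of that class (162 and 23 UMIs). In cluster 14 it was 140 and 183 CPM (54 and 24 UMIs), and the difference between the clusters was not tested. *Ly6e* was at 9.78 and 5.37 CPM over all cells, -0.86 (-1.07 to -0.67), and at 521 and 513 CPM within the immune class, and *Lgals9* at -1.01 (-1.56 to -0.48) and -0.09 (-0.80 to 0.58). Other genes were lower within the immune class, among them, named after their values were seen, *Cxcl10* at 72.9 and 8.95 CPM (61 and 3 UMIs), -3.03 (-5.34 to -1.41), *Trim30a* at -1.20 (-2.27 to -0.26), *Oasl1* with 17 and 0 UMIs, and *Isg20* with 12 and 0.

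*B2m*, the light chain of class I molecules, was at 35.5 CPM in WT and 13.5 CPM in ND6, -1.39 (-1.51 to -1.27), the 1 of 16 genes past 2-fold lower. Inside the immune class it was at -0.54 (-0.71 to -0.37), and in all other cells at -0.53 (-0.70 to -0.35). *H2-D1* was lower at -0.46 (-0.54 to -0.38), while *H2-K1* was higher at 0.31 (0.20 to 0.41) over all cells and at 0.87 (0.75 to 0.99) outside the immune class. Of 8 guanylate-binding and immunity-related GTPases, *Gbp9* was past 2-fold lower, *Gbp3* was lower at -0.89 (-1.46 to -0.34), and *Gbp7*, *Irgm1*, and *Gbp6* had intervals that included 0. Over all lists the median ratio of the 99 genes with at least 20 UMIs was -0.13, with 2 past 2-fold higher and 18 past 2-fold lower, beside a median of 0.07 and 8.6% and 2.81% over all genes. In all cells but the immune class it was 0.15 over 87 genes, with 10 past 2-fold higher and 1 lower, beside a median of 0.09 and 9.5% and 1.15% over all genes there.

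Across 18 points, the classes of each library with at least 20 cells, the genes whose log2 level ran most like the mean of the 8 were *Tmem176b* (r = 0.97), *Mertk* (r = 0.97), *Tmem176a* (r = 0.96), *Pmp22* (r = 0.96), and *Ctsc* (r = 0.96). Points of 1 library share that library's depth and preparation, so these are descriptions. Among the 8 genes themselves, *Bst2* ran most like *Ifi27* (r = 0.86) and *Ifit3* like *Ifi27* (r = 0.85). The lowest value was that of *Irf7* with *Ifit1* (r = -0.30), where several points had few or no *Ifit1* UMIs. That value is too weak to show an opposing pattern.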

How the data were processed

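The deposited files hold raw UMI counts per barcode and gene, which the authors made with Cell Ranger 3.0.2 on mm10. The annotation release is not given in the sources used here. A barcode counted as a cell if it had 401 UMIs or more and 201 detected genes or more, with mitochondrial genes giving no more than 20% of its UMIs, as in the study. The study's regression, which included an interferon-response gene set, and its integration were not repeated.

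Cells were clustered (scanpy 1.11.5, Leiden resolution 1, 3000 variable genes, 30 principal components), leaving out 160 genes, the genes of interest and the pathway lists among them. Clusters were named from marker genes, by a rule set after the clusters were seen. No doublet caller was run. Levels carry exact Poisson, shares exact Clopper-Pearson, and ratios exact conditional 95% intervals (scipy 1.17.1). In simulated counts for 15888 genes, over all cells and WT against ND6, the interval held the true ratio for 96.5% of 200 changed and 96.2% of 1000 unchanged genes. The simulated counts were Poisson draws, the model that the interval assumes, without spread between cells or mice. They check the computation only and cannot show how the intervals hold where UMIs gather in single cells. Ratios are counted only where a gene had 20 or more UMIs in WT and ND6 combined. Barcodes with 10 to 100 UMIs were read apart.

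The genes, lists, and tests were chosen with earlier results of these data known. Besides the 8 genes, the text names the up to 4 genes of each pathway list with the most UMIs, those past 2-fold with at least 100 UMIs, close copies, and the 5 genes most like the mean of the 8 on the log2(CPM + 10) scale; others are marked where they appear. Alternatives were no mitochondrial limit, a minimum of 1000 UMIs, median-of-ratios scaling, equal weight for each cell, pooled class shares, shared barcodes left out, no filter on low counts, other clusterings, and thinning to 400 UMIs. One gene of the pathway lists is not reported here.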

Additional observations from a re-analysis of the deposited data

Results flagged for a closer look

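For 3 of the genes, intervals lay on opposite sides of 0 in different classes of cells, and the difference between the classes was not tested. *Bst2* had a log2 ratio, ND6 over WT, of 1.74 in Müller-like cells and -0.56 in RPE-like cells. *Ifitm3* had 2.30 in Müller-like cells against -0.94 in rod-like, -0.98 in microglia- or macrophage-like, and -1.17 in RPE-like cells. *Ifi27* had 1.81 in bipolar-like and 1.41 in microglia- or macrophage-like cells against -1.51 in amacrine-like and -0.86 in RPE-like cells. A single ND6 Müller-like cell held 42 of 55 *Ifitm3* and 11 of 14 *Bst2* UMIs of its class, and a single WT amacrine-like cell 15 of 25 *Ifi27* UMIs. Without the richest cell of each library, *Bst2* in Müller-like cells was at -0.15 (-2.74 to 1.98), *Ifitm3* in Müller-like cells at 0.65 (-0.50 to 1.76), and *Ifi27* in amacrine-like cells at -0.44 (-1.61 to 0.82), so that intervals on opposite sides of 0 were left for *Ifi27* alone among these 3 genes. Its negative side was then the RPE-like class, which joined clusters that the libraries filled differently. There *Ifi27* was at 0.27 (-0.05 to 0.61) in cluster 7. In cluster 8 it was at -2.45 (-4.74 to -0.90), from 3 ND6 UMIs in 5 cells. On the positive side, the bipolar-like class also joined clusters that the libraries filled differently. Of its 4 clusters, cluster 15 held 69 WT and 50 ND6 cells and cluster 17 held 124 and 451. Their part in the bipolar-like ratio was not tested.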

How the results depend on the processing

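No paired analysis was possible because each genotype had 1 library. With 1 library per genotype, the spread between mice is unknown. The medians of the 8 genes and of the pathway lists stayed within the interval of the reported value in all 27 recomputations. That interval is not given here and was wide enough to allow a change of sign, so the count says little on stability. Equal weight for each cell took the median of the 8 genes over all cells from -0.13 to 0.14, and outside the immune class median-of-ratios scaling took it from 0.06 to -0.02. Giving each cell the same weight turned *Ifi27* to 0.17 over all cells and to 0.15 outside the immune class, and *Bst2* to 0.17 outside the immune class. Leaving out the richest cell of each library, an alternative chosen after seeing the data, as was taking clusters apart, turned *Bst2* in Müller-like cells to -0.15. Among the recomputed ratios of single genes 187 stayed within the interval of the reported value, 10 left it in the same direction or without a call, and the 4 above reversed. Equal weights gave 2607 genes past 2-fold higher and 345 lower, against 1367 and 446 as reported, and moved the median of all genes to 0.21. Thinning changed 99 of 113 shares of cells beyond their intervals. Genes with few UMIs, such as *Isg15*, could not show a small difference at this depth.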

Other observations

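Within microglia- or macrophage-like cells, genes of the wider interferon response differed in both directions. *Ifi30*, a thiol reductase of antigen processing, was at 74.1 CPM in WT and 200 CPM in ND6, a log2 ratio of 1.43 (0.91 to 1.95), *Lgals3bp* was at 1.44 (0.90 to 1.97), and *Socs1*, an inhibitor of JAK kinases, at 2.17 (0.98 to 3.45) from 10 and 18 UMIs. *Cxcl10*, a chemokine that draws T cells, was at -3.03 (-5.34 to -1.41), and *Trim30a* at -1.20 (-2.27 to -0.26). Over the 74 pathway genes with enough UMIs in this class, 4 were past 2-fold higher and 8 past 2-fold lower, beside 4.91% and 6.54% of all genes there. These genes other than *Ifi30* were named after their values were seen.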
